A study of Mus musculus with 47 samples.

Results

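The mouse genes Dnmt1, Dnmt3a, Dnmt3b, Dnmt3l, Uhrf1, Tet1, Tet2, Tet3 and Tdg, which encode the main enzymes that write, copy and remove DNA methylation, were followed through the differentiation of embryonic stem cells (ES cells) into ventral neural progenitors. The 9 genes were chosen by name, and each was found in all 3 deposited expression tables, which list 38347 genes (undifferentiated cells, day 1 and day 2), 38347 genes (days 3.5 to 7.5) and 37514 genes (Nkx2.2 arm). The values are FPKM, fragments scaled to transcript length and to library size, from poly(A)-selected RNA-seq. There were 47 libraries. Foxa2-/- cells lack the floor plate transcription factor Foxa2 and were sampled undifferentiated and on days 1, 2, 3.5, 4.5 and 5.5 (3 libraries each) and on days 6.5 and 7.5 (2 libraries each). WT cells of the same series were sampled undifferentiated and on days 1 and 2 (2 libraries each) and on days 3.5 to 7.5 (3 libraries each). The Nkx2.2 arm had, on days 3.5 and 5.5, a Nkx2.2-/- library and a WT library, 1 of each per day.

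Differentiating cells were grown as monolayers in N2B27 medium, with retinoic acid for the first 3.5 days. SAG, an agonist of Sonic hedgehog signalling, was present throughout differentiation in the Foxa2 series and for the first 3.5 days in the Nkx2.2 arm. For the undifferentiated cells no days of retinoic acid or SAG are given. Changes from them to later days therefore cannot be told apart from effects of starting either. From day 3.5 on, cells bearing prominin (Prom1) were isolated with magnetic beads, so the later libraries are a sorted fraction and the earlier libraries are not. The line is labelled E14.5 for WT and C57BL/6 for both mutants, so genotype and cell line cannot be told apart in any comparison below. Nothing in the labels says that replicates came from separate cultures, so a p-value here reflects no more than how these libraries scatter, which may be technical.

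DNA methylation in mammals is laid down on CG pairs by the de novo methyltransferases DNMT3A and DNMT3B, which DNMT3L, itself without catalytic activity, binds and stimulates in the germ line and in ES cells. At each replication fork UHRF1 recognises hemimethylated DNA and brings in DNMT1, which copies the pattern to the new strand. TET1, TET2 and TET3 oxidise 5-methylcytosine stepwise, and TDG excises the most oxidised forms so that base excision repair restores an unmodified cytosine. Naive ES cells are known for low methylation, and the exit from that state is known for high levels of DNMT3A and DNMT3B, while neural cells are known for high 5-hydroxymethylcytosine.

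The low FPKM values step in units that give a depth of about 34200000 to 40100000 fragments per library in the early table, 13800000 to 31900000 in the later table and 10000000 to 12300000 in the Nkx2.2 arm. Foxa2 was at most 0.266 FPKM in every Foxa2-/- library, against 25.5 to 41.9 FPKM in WT on day 2 and 37.7 to 100 FPKM in WT from day 3.5 on in the same series. Nkx2-2 was at 1.34 and 3.38 FPKM in the Nkx2.2-/- libraries of days 3.5 and 5.5, against 19.6 and 28.7 FPKM in their WT libraries. On day 2 relative to undifferentiated cells, all 10 naive pluripotency genes fell and all 8 neural progenitor genes rose in both genotypes. Foxa2-/- replicates 1 and 3 of day 2 had fewer fragments on long transcripts than every other early library, with slopes of -0.163 and -0.052 (log2 change per doubling of transcript length), against -0.032 to 0.098 in the others, so results resting on them are also given without them. Replicate 3 of the undifferentiated Foxa2-/- cells carries a source label that names neural progenitors, while its title names ES cells.

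Tests were run with limma on log2(FPKM + 1) over all genes of a table with an FPKM of at least 1 in at least 2 libraries (16465 early and 17124 late genes), and p-values were adjusted over all of them by the Benjamini-Hochberg method. All 9 genes passed this filter in both tables, Dnmt3l only through Foxa2-/- libraries in the later table. Fold changes are given as log2 values on the log2(FPKM + 1) scale, which understates changes of low genes, with 95% intervals in brackets, and a gene is said to have changed at an adjusted p under 0.05.

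Maintenance of methylation rests on Dnmt1 and Uhrf1. Of all promoter windows of the 9 genes, only a single window of each of these 2 genes held the consensus letters of the E2F factors, known as regulators of S phase genes. Dnmt1 lies on chromosome 9 (20907209 to 20959888, minus strand) and Uhrf1 on chromosome 17 (56303321 to 56323486, plus strand), in the GRCm38 build with GENCODE M21 gene models. The windows run from 250 bases before to 50 bases after a RefSeq start site (GRCm38.p6), and the letters searched on both strands were TTTCCCGC, TTTCGCGC, TTTGCCGC and TTTGGCGC. They occurred in 2.26% of all 32851 windows of this length and in a window of 2.6% of all 27025 genes. Among these 9 genes 2 had them, as did 5 of the 11 S phase genes that could be matched. The matching Dnmt1 and Uhrf1 windows each held 33 CG pairs, more than 91.4% of windows. Both genes also had windows at other start sites, which held no match. Every set of letters searched contains CG, so the share over all windows is not a like measure for windows rich in CG. The stretches with the searched letters are shown because Dnmt1 and Uhrf1 moved with S phase genes in the later libraries (below). Matching letters are in capitals, 5′ to 3′ on the gene's strand. A match is a description of the letters, and nothing here measured E2F binding.
Dnmt1, chr9:20952824-20952853, first base at -219 from the start site, reverse complement of TTTCGCGC: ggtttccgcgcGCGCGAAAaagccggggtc
Dnmt1, chr9:20952574-20952603, first base at 33 from the start site: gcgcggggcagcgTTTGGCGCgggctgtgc
Uhrf1, chr17:56304117-56304146, first base at -185 from the start site: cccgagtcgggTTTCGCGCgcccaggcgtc
The windows of the 9 genes also differed in CG content, the letters on which these enzymes act. The median window in the genome held 7 CG pairs. The single Tet2 window held 57, more than 99.8% of windows, and the 3 Dnmt3a windows held 46, 47 and 18. The 3 windows of Dnmt3l held 6, 4 and 3, below the median.

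In the first 2 days the de novo methyltransferase genes and their partner fell steeply, while no change of Dnmt1 or Uhrf1 passed the test. Dnmt3a (chromosome 12, 3806007 to 3914443, plus strand) was at 250.1, 227 and 229 FPKM in undifferentiated Foxa2-/- cells, 51.3, 62.2 and 54.8 on day 1, and 24.7, 29.9 and 26.7 on day 2. In WT cells it was at 187 and 143 FPKM undifferentiated, 73.8 and 80.9 on day 1, and 32.5 and 37.9 on day 2. Within each genotype the 3 times did not overlap. From undifferentiated cells to day 2 Dnmt3a fell by 3.07 on the log2 scale in Foxa2-/- cells [-3.36 to -2.79] (limma adjusted p = 1.06e-08) and fell by 2.19 in WT cells [-2.54 to -1.84] (adjusted p = 1.60e-06). In a bulk library, fewer cells carrying a transcript and less of it per cell cannot be told apart.

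Dnmt3b (chromosome 2, 153649450 to 153687730, plus strand) started at 163, 134.4 and 151 FPKM in Foxa2-/- and 146 and 96.4 FPKM in WT ES cells. By day 2 it had 16.8, 21.1 and 19.6 FPKM in Foxa2-/- and 19.8 and 20.9 FPKM in WT cells. It fell by 2.90 in Foxa2-/- (adjusted p = 5.35e-08) and fell by 2.49 in WT cells (adjusted p = 2.09e-06). Dnmt3l (chromosome 10, 78041947 to 78063622, plus strand) also fell. It was at 112, 84.9 and 101 FPKM in undifferentiated Foxa2-/- cells, 56.4, 55.8 and 57.4 on day 1, and 23.5, 13.5 and 20.7 on day 2. WT cells had 81.6 and 63.9 FPKM undifferentiated, 48.3 and 60.3 on day 1, and 8.71 and 8.99 on day 2. Between undifferentiated cells and day 1 the WT change of Dnmt3l, -0.41, did not pass the test (adjusted p = 0.273), while its change from day 1 to day 2 was -2.48 (adjusted p = 2.74e-05). In Foxa2-/- cells Dnmt3l fell by 0.80 by day 1 (adjusted p = 0.00571) and fell by 1.54 between days 1 and 2.

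Tet1 and Tet2 fell and Tet3 rose over the same 2 days. Tet1 (chromosome 10, 62804570 to 62908996, minus strand), the main TET gene of ES cells, was at 52.4, 46.2 and 60.8 FPKM in Foxa2-/- and at 37.1 and 53.3 FPKM in WT ES cells. On day 1 it was at 8.49, 7.52 and 7.82 FPKM in Foxa2-/- and 11.4 and 14.5 FPKM in WT cells, with no overlap with ES cells in either genotype. The change from undifferentiated cells to day 1 was -2.59 in Foxa2-/- (adjusted p = 2.74e-04) and -1.71 in WT cells (adjusted p = 0.0251). The WT call was lost without any 1 of the 4 WT libraries (-1.97 to -1.46, adjusted p 0.0504 to 0.153), though the change to day 2, -2.29 (adjusted p = 0.0026), kept it. Tet1 on day 2 was at 1.06, 6.61 and 1.78 FPKM in Foxa2-/- replicates 1, 2 and 3 and at 7.01 and 9.77 FPKM in WT. The 2 low values belong to the replicates with few fragments on long transcripts, and Tet1 has the longest transcript of the 9, 14369 bases. The change from day 1 to day 2 in Foxa2-/- cells, -1.34 (adjusted p = 0.019), was -0.23 (adjusted p = 0.568) without replicates 1 and 3. It also lost its call without replicate 1 alone (-0.96, adjusted p = 0.0668), replicate 3 alone (-1.17, adjusted p = 0.0737), day 1 replicate 1 (-1.30, adjusted p = 0.0574) or day 1 replicate 3 (-1.35, adjusted p = 0.0507).

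Tet3 (chromosome 6, 83362373 to 83459084, minus strand), the TET gene of the oocyte and of neural cells, moved the other way. It was at 1.31, 0.864 and 1.49 FPKM in undifferentiated Foxa2-/- cells, 4.32, 4.47 and 4.75 on day 1 and 3.75, 6.22 and 4.38 on day 2. WT cells had 1.68 and 1.14 FPKM undifferentiated, 3.04 and 4.63 on day 1, and 8.47 and 8.87 on day 2. By day 2 Tet3 had risen by 1.37 in Foxa2-/- (adjusted p = 1.04e-04) and by 2.01 in WT cells (adjusted p = 4.29e-05). Tet2 (chromosome 3, 133463679 to 133545139, minus strand) fell, by 2.35 in Foxa2-/- (adjusted p = 6.41e-06) and by 1.83 in WT (adjusted p = 3.57e-04), to 0.538, 1.79 and 0.885 FPKM in Foxa2-/- and 2.15 and 2.45 FPKM in WT on day 2. Tet2 in undifferentiated cells was at 8.58, 9.45 and 9.69 FPKM in Foxa2-/- and 8.04 and 14.3 FPKM in WT. As a share of the summed FPKM of the 3 TET genes, which compares levels per length, Tet1 made up 81.8 to 84.5% in Foxa2-/- and 77.6 to 79.3% in WT ES cells. On day 2 its share was 19.8 to 45.2% in Foxa2-/- and 39.8 to 46.3% in WT. Tet3 held 1.53 to 2.11% in Foxa2-/- and 1.66 to 3.59% in WT ES cells, and 42.5 to 70.2% in Foxa2-/- and 42.0 to 48.1% in WT on day 2. Foxa2-/- replicate 2, without the low long-transcript coverage of replicates 1 and 3, had 45.2% Tet1 and 42.5% Tet3 on day 2, and the ranges of the 2 shares overlapped in WT.

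**Figure D1:**
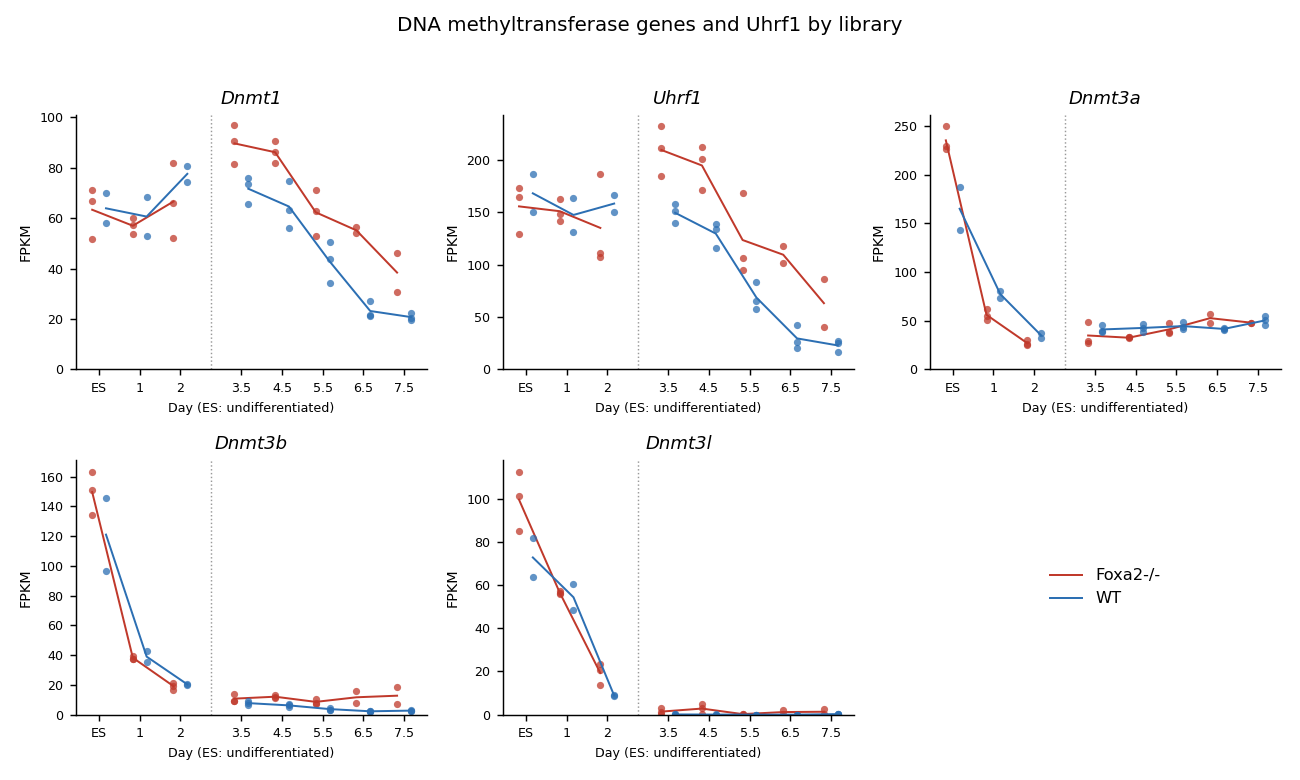
FPKM of Dnmt1, Uhrf1, Dnmt3a, Dnmt3b and Dnmt3l (vertical axes, linear) by day (horizontal axes; ES, undifferentiated), with a point per library and a line through the group means, Foxa2-/- in red and WT in blue; the dotted line parts the 2 separately normalised tables. Dnmt3a, Dnmt3b and Dnmt3l are highest in ES cells and fall by day 2, while Dnmt1 and Uhrf1 fall after day 3.5, WT below Foxa2-/-.

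Dnmt1 and Uhrf1 were high at all 3 early times. On day 2 Dnmt1 was at 52.0, 81.9 and 66.0 FPKM in Foxa2-/- and 74.4 and 80.8 FPKM in WT, and undifferentiated cells had 71.3, 51.8 and 66.9 FPKM in Foxa2-/- and 69.8 and 58.0 FPKM in WT. The Dnmt1 change to day 2 was 0.06 in Foxa2-/- (adjusted p = 0.789) and 0.28 in WT (adjusted p = 0.352). Uhrf1 changed by -0.24 in Foxa2-/- (adjusted p = 0.342) and by -0.08 in WT (adjusted p = 0.842), and Tdg by -0.13 (adjusted p = 0.59) and by 0.14 (adjusted p = 0.682) in the same 2 comparisons. For Uhrf1 in Foxa2-/- the value without day 2 replicate 2 was -0.49 (adjusted p = 0.0166). Dnmt1 thus made up 12.6 to 14.97% of the summed FPKM of Dnmt1, Dnmt3a and Dnmt3b in undifferentiated Foxa2-/- cells and 17.3 to 19.5% in WT, and 55.6 to 61.6% in Foxa2-/- and 57.9 to 58.7% in WT cells on day 2.

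Counted over the 9 genes, 6 had changed by day 2 relative to undifferentiated cells in Foxa2-/- (54.6% of all genes tested changed) and the same number in WT (33.9% of all genes). By day 1 the counts were 6 in Foxa2-/- (44.4% of all genes) and 4 in WT (16.8%), and from day 1 to day 2 they were 5 in Foxa2-/- (31.2%) and 5 in WT (17.2%). In WT on day 1, the Tet3 change of 0.99 (adjusted p = 0.0109) was lost without WT ES replicate 2 (0.83, adjusted p = 0.0896) and without WT day 1 replicate 2 (0.75, adjusted p = 0.0999). From day 1 to day 2 in WT, the Tet3 change of 1.02 was lost without WT day 1 replicate 1 (0.78) or either day 2 library (1.05 and 0.99), and the Dnmt3b change of -0.90 without WT day 2 replicate 1 (-0.87, adjusted p = 0.0551). Over all genes the median change was 0.265 by day 1 and 0.14 by day 2 in Foxa2-/- and 0.11 by day 2 in WT, so these falls are larger, and the rises smaller, relative to the typical gene.

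Between genotypes, few early differences passed the test. None of the 9 genes differed in undifferentiated cells (0.377% of all genes did; 1 of the 9 at an unadjusted p under 0.05) or on day 1 (1.88% did; 2 of the 9 unadjusted), and Dnmt3l alone differed on day 2 (5.31%; 5 of the 9 unadjusted). Dnmt3l on day 2 was higher by 1.01 in Foxa2-/- (adjusted p = 0.02). On the same day 6 of 8 neural progenitor genes were higher in Foxa2-/- (median 1.05, against -0.02 over all genes) and 6 of 8 genes of the 2-cell-like state lower (median -1.06), and their part in the day 2 differences was not tested. Neither list parted first on day 2. The summed FPKM of the 2-cell-like list was 34.95 to 47.4 in Foxa2-/- and 90.8 to 100.4 in WT undifferentiated cells. The neural progenitor sum was 357 to 366 in Foxa2-/- and 156 to 190 in WT on day 1. The Dnmt3l call was lost without replicates 1 and 3 together (0.56, adjusted p = 0.313), and also without Foxa2-/- replicate 1 (0.85, adjusted p = 0.0521), Foxa2-/- replicate 3 (0.94, adjusted p = 0.0777), WT replicate 1 (0.99, adjusted p = 0.15) or WT replicate 2 (1.03, adjusted p = 0.146). The 3 TET genes on day 2 were on average lower in Foxa2-/- without passing the test. Tet1 differed by -1.40 (adjusted p = 0.0683), and by -0.29 without replicates 1 and 3. Tet2 differed by -0.72 (adjusted p = 0.0936), and by -0.24 without them. Tet3 differed by -0.76 (adjusted p = 0.0547), and by -0.42 without them. Without Foxa2-/- replicate 2, the library of usual length trend, all 3 passed (Tet1 -1.96, adjusted p = 2.78e-04, Tet2 -0.95, adjusted p = 0.00662, and Tet3 -0.94, adjusted p = 0.0038). With each library's length trend removed the differences were -1.13 for Tet1 (adjusted p = 0.0747), -0.51 for Tet2 (adjusted p = 0.122) and -0.53 for Tet3 (adjusted p = 0.13). On day 1, Tet2 was at 4.54, 3.56 and 3.83 FPKM in Foxa2-/- and 10.03 and 9.22 FPKM in WT, without overlap, a difference of -1.10 [-1.65 to -0.55] (adjusted p = 0.0512). A test of whether the change from undifferentiated cells to day 2 differed between genotypes found none of the 9 (1.01% of all genes; 3 of the 9 unadjusted), with Dnmt3a closest at -0.89 (adjusted p = 0.0798), and Dnmt3a, Dnmt3l, Tet1 and Tet3 passed it without Foxa2-/- day 2 replicate 2 (-0.96, 0.78, -2.20 and -0.82).

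**Figure D2:**
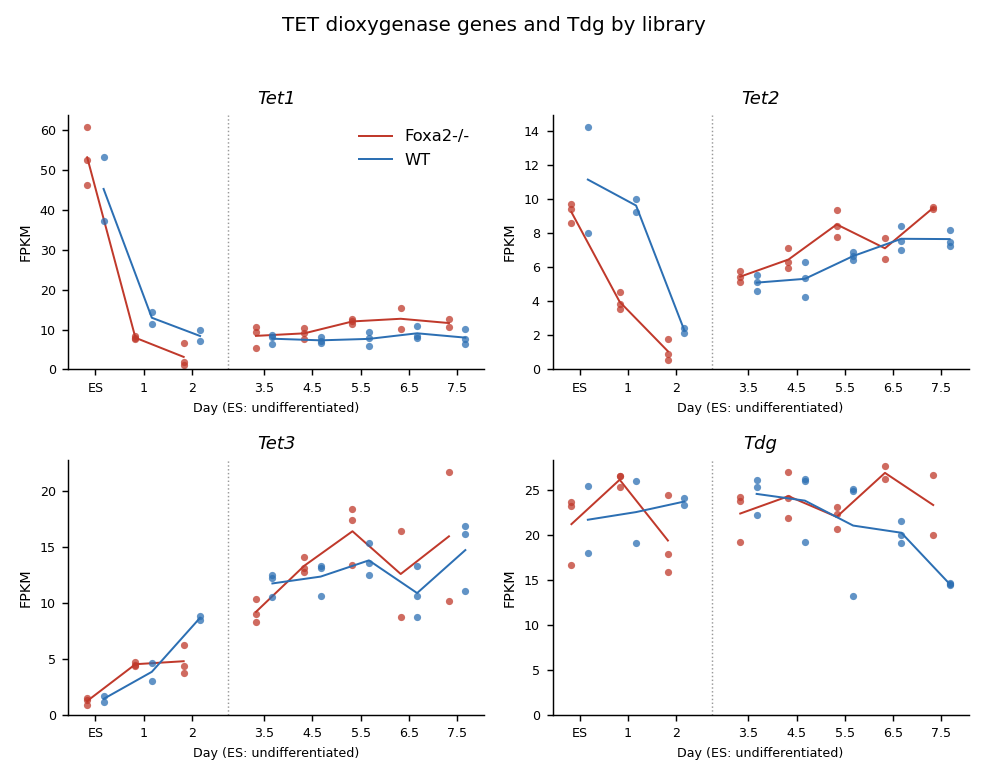
FPKM of Tet1, Tet2, Tet3 and Tdg (vertical axes, linear) by day (horizontal axes; ES, undifferentiated), with a point per library and a line through the group means, Foxa2-/- in red and WT in blue; the dotted line parts the 2 tables. Tet1 is highest in ES cells and Tet3 lowest there, and 2 Foxa2-/- libraries of day 2 stand at 1.06 and 1.78 FPKM of Tet1.

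After day 3.5, in the prominin-sorted cells, Dnmt1 and Uhrf1 RNA fell in both genotypes and was higher in Foxa2-/- than in WT cells from day 5.5 on. In Foxa2-/- cells Dnmt1 was at 90.5, 97.1 and 81.4 FPKM on day 3.5, 86.3, 90.5 and 81.7 on day 4.5, 71.0, 53.0 and 62.9 on day 5.5, 56.4 and 54.0 on day 6.5, and 46.0 and 30.8 on day 7.5. In WT cells the values were 65.7, 76.0 and 73.4 FPKM, then 55.9, 74.7 and 63.3, then 34.1, 43.9 and 50.7, then 27.0, 21.02 and 21.5, and 20.2, 19.5 and 22.6 on day 7.5. Every Foxa2-/- library lay above every WT library of its day. From day 3.5 to day 7.5 Dnmt1 fell by 1.22 in Foxa2-/- (adjusted p = 3.39e-05) and fell by 1.74 in WT (adjusted p = 4.09e-08). The difference between genotypes was 1.22 [0.86 to 1.59] on day 6.5 (adjusted p = 2.54e-05) and 0.83 [0.47 to 1.19] on day 7.5 (adjusted p = 0.00126). On day 5.5 it was 0.54 (adjusted p = 0.0221), a call lost without Foxa2-/- replicate 1 (0.44, adjusted p = 0.121), Foxa2-/- replicate 3 (0.53, adjusted p = 0.0653) or WT replicate 1 (0.39, adjusted p = 0.136). The day 7.5 call was lost without Foxa2-/- replicate 1 (0.55, adjusted p = 0.0737).

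Uhrf1 followed the same course at higher FPKM. It was at 211, 232 and 184 FPKM in Foxa2-/- and 139.2, 157 and 151 FPKM in WT cells on day 3.5. By day 6.5 the level was 118 and 101 FPKM in Foxa2-/- and 42.0, 20.9 and 25.9 FPKM in WT, and on day 7.5 at 86.1 and 40.2 FPKM in Foxa2-/- and 27.2, 16.5 and 25.1 FPKM in WT. It changed by -1.80 in Foxa2-/- (adjusted p = 1.58e-04) and by -2.68 in WT (adjusted p = 1.39e-07) between days 3.5 and 7.5. The genotypes differed by 0.81 on day 5.5 (adjusted p = 0.0439), 1.91 [1.29 to 2.52] on day 6.5 (adjusted p = 7.17e-05) and 1.35 [0.74 to 1.97] on day 7.5 (adjusted p = 0.00182). Without Foxa2-/- replicate 1 the day 5.5 difference of Uhrf1 was 0.56 (adjusted p = 0.239) and the day 7.5 difference 0.81 (adjusted p = 0.11). The day 5.5 call also went without Foxa2-/- replicate 3 (0.89, adjusted p = 0.0625), WT replicate 1 (0.70, adjusted p = 0.149) or WT replicate 2 (0.78, adjusted p = 0.113). Whether the fall itself differed between genotypes was not settled, at 0.51 for Dnmt1 (adjusted p = 0.211) and 0.87 for Uhrf1 (adjusted p = 0.21). The Uhrf1 value without Foxa2-/- day 7.5 replicate 2 was 1.42 (adjusted p = 0.0357).

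Uhrf1 has a near-identical copy, Gm5648, alike at 98.3% of 1590 aligned bases, and reads can be split between them, so the level of either is uncertain. Gm5648 was at 17.7 and 32.5 FPKM in Foxa2-/- and 5.55, 2.77 and 4.36 FPKM in WT on day 6.5. It differed between genotypes by 2.30 on day 6.5 (adjusted p = 3.00e-05) and by 0.95 on day 7.5 (adjusted p = 0.0394), the same direction as Uhrf1.

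S phase genes, which encode the replication machinery that Dnmt1 and Uhrf1 work beside, moved with them. Of the 14 listed, 13 were tested. All 13 were higher in Foxa2-/- than in WT on day 6.5 (median 1.36, against 0.07 over all genes tested, 13% of them higher) and 9 of 13 on day 7.5 (median 0.88, against 0.04, with 13.6% higher), while 1 was on day 5.5 and none on days 3.5 and 4.5. All 13 fell from day 3.5 to day 7.5 in Foxa2-/- (median -1.47) and in WT (median -2.40). Mcm3, a subunit of the replicative helicase, differed by 1.90 on day 6.5 (adjusted p = 1.97e-05), with 77.3 FPKM on average in Foxa2-/- and 20.8 in WT. The summed FPKM of the list was 838.2 to 1205 in Foxa2-/- and 305.3 to 550.0 in WT on day 6.5, and 384.4 to 833.7 in Foxa2-/- and 232.8 to 287.6 in WT on day 7.5. With the later days pooled, Dnmt1 was 4.68 to 8.02% of this sum in Foxa2-/- and 4.67 to 8.40% in WT, ranges that nearly coincide. Uhrf1 was 9.76 to 14.7% in Foxa2-/- and 5.42 to 11.2% in WT. Day by day, the Uhrf1 share was higher in Foxa2-/- without overlap from day 4.5 on. It was 9.76 to 12.06% in Foxa2-/- and 5.42 to 8.48% in WT on day 6.5. On day 7.5 it was 10.33 to 10.45% in Foxa2-/- and 7.08 to 9.47% in WT. The Dnmt1 shares of the genotypes overlapped on each day except day 4.5. The pooled Dnmt1 ranges mix days, since its share was not constant in WT. There it was 4.67 to 5.44% on day 3.5 and 7.03 to 8.40% on day 7.5. In Foxa2-/- the same days overlapped, at 4.77 to 6.01% and 5.52 to 8.02%. Among all genes with a mean of at least 5 FPKM, those whose log2(FPKM + 1) tracked Dnmt1 most closely over the 28 later libraries were Pola2 (Pearson r = 0.990) and Mcm3 (r = 0.989), and for Uhrf1 they were Mcm3 (r = 0.993) and Pola2 (r = 0.992). Pola2 is a subunit of DNA polymerase alpha. These r values describe libraries that share days and genotypes. Over the 15 early libraries the nearest gene was Acin1 for Dnmt1 (r = 0.887) and Setd1a for Uhrf1 (r = 0.927).

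**Figure D3:**
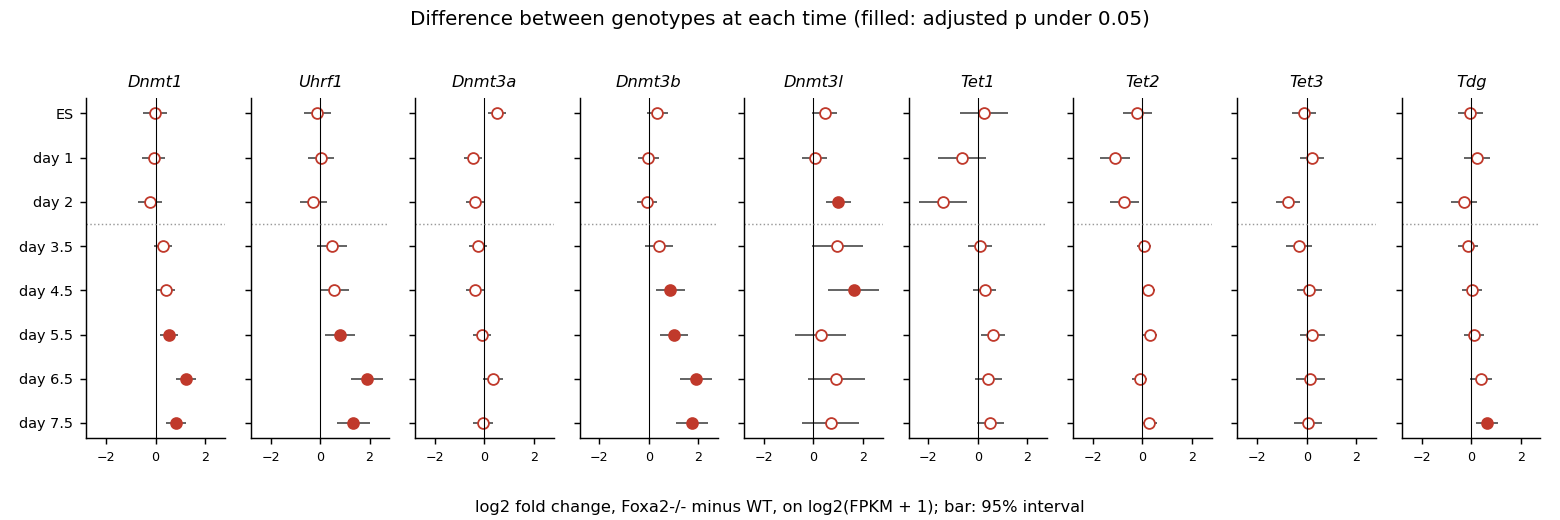
Log2 fold change of Foxa2-/- minus WT on log2(FPKM + 1) (horizontal axes) for each of the 9 genes at each time (vertical axis), with 95% intervals; filled points have a limma adjusted p under 0.05 over all genes. Dnmt1, Uhrf1 and Dnmt3b are all filled on days 5.5 to 7.5, with day 6.5 values of 1.22, 1.91 and 1.89, while Dnmt3a and the TET genes are filled at no time.

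Dnmt3b also differed between genotypes in sorted cells, from day 4.5 on. It was at 8.95, 14.0 and 9.37 FPKM in Foxa2-/- cells on day 3.5, 12.9, 12.1 and 11.1 on day 4.5, 10.5, 7.47 and 7.81 on day 5.5, 15.8 and 7.58 on day 6.5, and 18.5 and 6.96 on day 7.5. WT cells had 6.66, 7.69 and 8.90 FPKM on day 3.5, 7.12, 6.37 and 5.16 on day 4.5, 4.46, 3.28 and 3.45 on day 5.5, 2.64, 1.94 and 2.17 on day 6.5, and 3.05, 2.64 and 2.41 on day 7.5. From day 3.5 to day 7.5 the change was 0.11 in Foxa2-/- (adjusted p = 0.813) and -1.24 in WT (adjusted p = 5.60e-04). The Foxa2-/- change was -0.54 (adjusted p = 0.162) without day 7.5 replicate 1 and 0.76 (adjusted p = 0.111) without day 7.5 replicate 2, so its direction rests on which library is kept. The genotypes differed by 0.86 on day 4.5 (adjusted p = 0.046), 1.01 on day 5.5 (adjusted p = 0.0102), 1.89 [1.28 to 2.50] on day 6.5 (adjusted p = 6.76e-05) and 1.76 [1.15 to 2.36] on day 7.5 (adjusted p = 1.31e-04). The day 4.5 call was lost without any 1 of its 6 libraries (0.75 to 0.95, adjusted p 0.0751 to 0.173). The day 5.5 call was lost without Foxa2-/- replicate 1 (0.88, adjusted p = 0.0611), and on day 7.5 the value was 1.11 without Foxa2-/- replicate 1, still past the threshold.

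The change of Dnmt3b between days 3.5 and 7.5 differed between genotypes by 1.35 [0.53 to 2.16] (adjusted p = 0.0388), the only 1 of the 9 genes to pass that test (7.42% of all genes did; 4 of the 9 at an unadjusted p under 0.05). It was 0.70 (adjusted p = 0.302) without Foxa2-/- day 7.5 replicate 1, and it also failed without 6 other libraries taken 1 at a time. Those were Foxa2-/- day 3.5 replicates 1 (1.24) and 3 (1.27), WT day 3.5 replicates 2 (1.35) and 3 (1.25), and WT day 7.5 replicates 2 (1.34) and 3 (1.29), with adjusted p from 0.0693 to 0.0852. Gm14490, which RefSeq also lists as Dnmt3c and as a Dnmt3b pseudogene, lies beside Dnmt3b on chromosome 2 and is known in rodents as a male germ line methyltransferase that arose by duplication of Dnmt3b. In the later table Gm14490 reached 1 FPKM in Foxa2-/- libraries alone, so no test of it is given; it was at 1.78 and 0.709 FPKM in Foxa2-/- and 0.251, 0.214 and 0.176 FPKM in WT on day 6.5. Over the early libraries it was the gene whose log2(FPKM + 1) was most like that of Dnmt3b (r = 0.992), at 17.8, 17.1 and 18.8 FPKM in Foxa2-/- and 18.2 and 10.1 FPKM in WT ES cells, and at 0.862, 2.35 and 1.48 FPKM in Foxa2-/- and 1.83 and 2.34 FPKM in WT on day 2. Since the sequences are related, reads can be split between them.

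Some genes of pluripotent cells were higher in the same Foxa2-/- libraries, and those named here were picked after their values were seen. Pou5f1, the core pluripotency factor, was at 19.6 and 5.95 FPKM in Foxa2-/- on day 6.5 and 19.6 and 6.37 on day 7.5, replicate 1 first each time, and at most 0.973 FPKM in any WT library from day 3.5 on. Lin28a, an RNA-binding protein of pluripotent and early neural cells, was at 63.2 and 9.53 FPKM in Foxa2-/- on day 7.5 and 1.66 to 7.49 FPKM in WT. Nanog was at 2.27 and 2.12 FPKM in Foxa2-/- replicate 1 of days 6.5 and 7.5 and at most 0.762 FPKM elsewhere in the later table. The summed FPKM of the core and formative list was 99.2 to 165 in Foxa2-/- and 85.6 to 99.1 in WT on day 6.5, and 101 to 202 in Foxa2-/- and 76.5 to 111 in WT on day 7.5. These ranges nearly touched on day 6.5 and overlapped on day 7.5. Pou5f1 and Lin28a, picked above, are part of the sums, so the sums do not show a rise of the list as a whole. Of its 9 genes, 6 were tested and 2 were called higher in Foxa2-/- on each of those days, when 13% and 13.6% of all genes were. Pou5f1 reached 1 FPKM in Foxa2-/- libraries alone and entered the test through them. On the naive list 7 of 10 genes were tested, with 2 higher and none lower on day 6.5 and 1 each way on day 7.5. On days 4.5 and 5.5, when Dnmt3b also differed, Pou5f1 was 0.387 to 4.98 FPKM in Foxa2-/-. The part of such cells in the Dnmt3b difference was not tested.

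Dnmt3l had nearly gone from WT progenitors, with 0 to 0.356 FPKM over 15 libraries, 8 of them listed at 0. Foxa2-/- libraries held 0.166, 3.01 and 1.03 FPKM on day 3.5, 0.307, 5.05 and 3.07 on day 4.5, 0, 0.451 and 0.276 on day 5.5, 0.165 and 2.22 on day 6.5, and 0.175 and 2.50 on day 7.5. Dnmt3l was thus above 1 FPKM in replicates 2 and 3 only, and replicate 1 stayed within the WT values of all later days pooled. Within its own day, replicate 1 lay above every WT library on day 4.5 (0.307 against at most 0.0921 FPKM) and day 6.5 (0.165 against at most 0.0409 FPKM). No label ties a replicate number to the same number on another day. On day 4.5 the difference of 1.63 [0.63 to 2.62] passed (adjusted p = 0.0398), but Dnmt3l had entered the test through these libraries, and the call was lost without Foxa2-/- replicate 2 (1.16, adjusted p = 0.249) or 3 (1.45, adjusted p = 0.152), or without any of the 3 WT libraries (1.61 to 1.67, adjusted p 0.0862 to 0.105). Dppa5a, a gene of naive ES cells, followed the same replicates, at 0.544, 14.8 and 9.34 FPKM in Foxa2-/- on day 3.5, 3.22, 22.8 and 18.8 on day 4.5, 4.37 and 39.1 on day 6.5, and 3.77 and 19.15 on day 7.5, and 0 to 3.10 FPKM in WT. It was the gene most like Dnmt3l over the 28 later libraries (r = 0.919). Other genes of pluripotent cells went the other way. On days 6.5 and 7.5 Nanog, on the same naive list, and Pou5f1 were highest in Foxa2-/- replicate 1, where Dnmt3l was low. The part of naive-like cells in the Dnmt3l values was not tested.

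**Figure D4:**
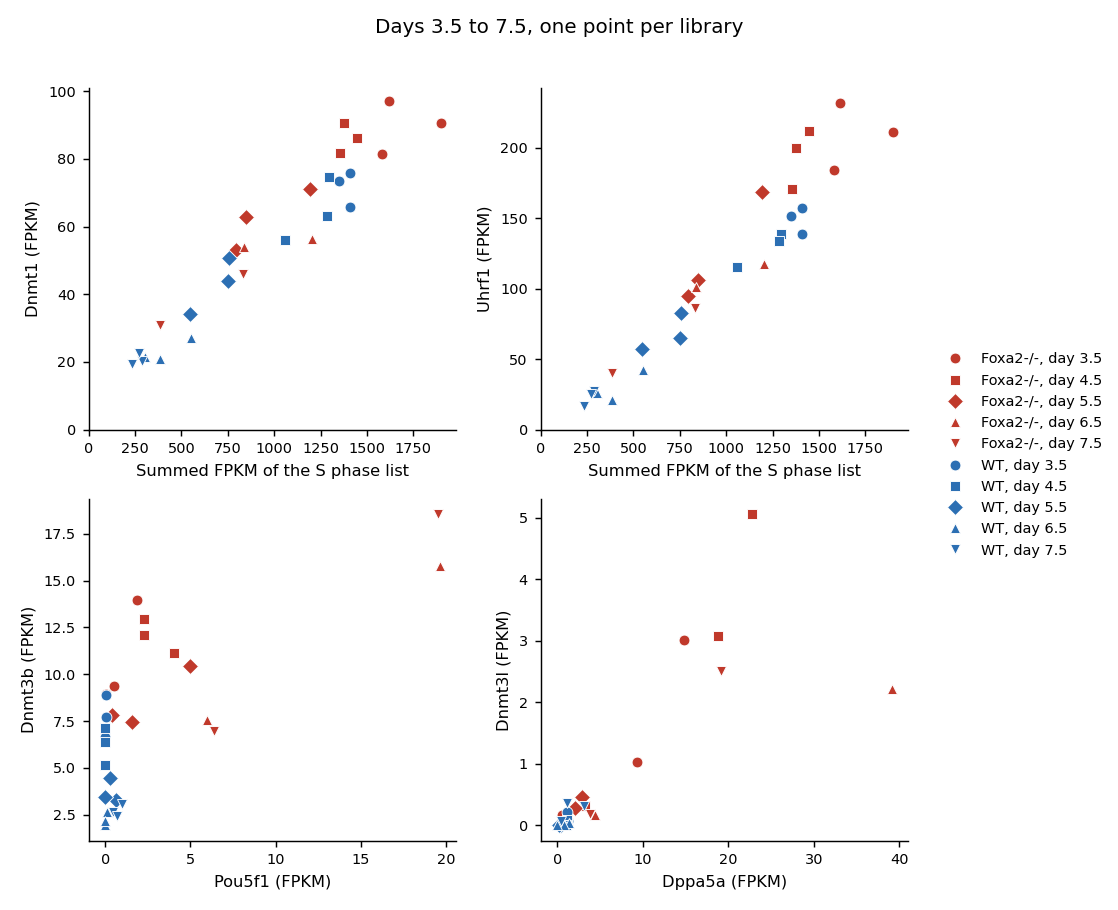
Later libraries of both genotypes, a point each (Foxa2-/- in red, WT in blue, a symbol per day). The upper plots set Dnmt1 and Uhrf1 (FPKM) against the summed FPKM of the S phase list, and the lower plots set Dnmt3b against Pou5f1 and Dnmt3l against Dppa5a (FPKM). Dnmt1 and Uhrf1 rise with the S phase sum in both genotypes, and Uhrf1 is a larger share of it in Foxa2-/- from day 4.5 on. The 2 highest Dnmt3b values, 15.8 and 18.5 FPKM, belong to the 2 libraries with 19.6 FPKM of Pou5f1, and the high Dnmt3l values belong to libraries with 9.34 to 39.1 FPKM of Dppa5a.

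Other measures of the sorted cells moved with genotype too. Prom1, the sort marker, was at 86.6 and 68.3 FPKM in Foxa2-/- and 207, 187 and 154 FPKM in WT on day 6.5, and at 72.2 and 52.6 FPKM in Foxa2-/- and 212, 226 and 262 FPKM in WT on day 7.5. Neuronal genes were higher in Foxa2-/- on day 7.5 for 3 of the 7 tested (median 0.94) and for none on day 6.5 (median -0.54). Endoderm and mesoderm genes were called higher for 2 and lower for 1 of 8 on day 6.5, and 2 each way on day 7.5. Their part in the differences of the methylation genes was not tested.

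For Dnmt3a and the TET genes no difference between genotypes passed the test in sorted cells with FPKM as deposited. The length trend of these libraries differed between genotypes. Its slopes were lower in Foxa2-/- without overlap on each later day except day 4.5. On day 5.5 they were -0.019 to -0.002 in Foxa2-/- and 0.000 to 0.058 in WT. Removing the trend raised the number of called genes on day 5.5 (below), and which genes were added is not given here. Dnmt3a was at 48.2 and 48.0 FPKM in Foxa2-/- and 54.8, 50.4 and 45.6 FPKM in WT on day 7.5, and lay between 26.8 and 57.4 FPKM in Foxa2-/- and 38.1 and 54.8 FPKM in WT over all later libraries. It rose by 0.50 from day 3.5 to day 7.5 in Foxa2-/- (adjusted p = 0.0317), but by 0.34 (adjusted p = 0.194) with each library's length trend removed. The Foxa2-/- slopes per doubling of length were -0.096, -0.049 and -0.051 on day 3.5 and -0.015 and 0.035 on day 7.5. The rise of 0.50 lost its call without Foxa2-/- day 3.5 replicates 2 (0.40, adjusted p = 0.116) or 3 (0.34, adjusted p = 0.145), or day 7.5 replicates 1 (0.50, adjusted p = 0.0904) or 2 (0.51, adjusted p = 0.167), and the value was 0.77 without day 3.5 replicate 1. With Dnmt1 falling, Dnmt3a became the largest of the 3 catalytic methyltransferase genes in FPKM. Its share of the sum was 42.7 to 56.0% in Foxa2-/- and 64.6 to 70.2% in WT on day 7.5, and 20.7 to 33.0% in Foxa2-/- and 32.2 to 35.6% in WT on day 3.5.

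Tet2 rose slowly in sorted cells, by 0.70 from day 3.5 to day 7.5 in Foxa2-/- (adjusted p = 4.95e-04) and by 0.51 in WT (adjusted p = 0.00119). It reached 9.55 and 9.44 FPKM in Foxa2-/- and 7.25, 7.51 and 8.20 FPKM in WT on day 7.5, against 5.14, 5.41 and 5.80 FPKM in Foxa2-/- and 5.58, 5.13 and 4.59 FPKM in WT on day 3.5. After quantile normalization the Tet2 change was 0.42 in Foxa2-/- (adjusted p = 0.0754) and 0.33 in WT (adjusted p = 0.0953). Tet1 ranged from 5.36 to 15.3 FPKM in Foxa2-/- and 5.88 to 10.9 FPKM in WT, and Tet3 from 8.26 to 21.8 FPKM in Foxa2-/- and 8.71 to 16.9 FPKM in WT. On day 5.5 Tet1 was at 12.6, 11.4 and 12.1 FPKM in Foxa2-/- and 9.31, 5.88 and 7.81 FPKM in WT, without overlap, a difference of 0.61 (adjusted p = 0.0607) that was 0.74 without WT replicate 1 (adjusted p = 0.0422). In FPKM the order of the 3 TET genes in sorted cells placed Tet3 above Tet1 in most libraries, and Tet1 held 20.6 to 48.1% of their sum.

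Over the 9 genes, those that changed from day 3.5 to day 7.5 numbered 4 in Foxa2-/- (32.1% of all genes tested changed) and 5 in WT (46.8%). From day 3.5 to day 5.5 the counts were 4 in Foxa2-/- (13.9%) and 3 in WT (18.5%), and from day 5.5 to day 7.5 they were 1 in Foxa2-/- (3.84%) and 2 in WT (15.3%). From day 3.5 to day 5.5 in Foxa2-/-, Dnmt1 (-0.52), Uhrf1 (-0.80) and Tet3 (0.76) each lost its call without day 3.5 replicate 1, day 5.5 replicate 2 or day 5.5 replicate 3 (Dnmt1 -0.54 to -0.41, Uhrf1 -0.79 to -0.63, Tet3 0.68 to 0.75). Dnmt1 and Uhrf1 did so also without day 3.5 replicate 2 (-0.47 and -0.72), and Uhrf1 and Tet3 without day 3.5 replicate 3 (-0.88 and 0.70). From day 5.5 to day 7.5 in Foxa2-/-, Dnmt1 (-0.70) lost its call without day 5.5 replicate 1 (-0.60) or 3 (-0.69) or day 7.5 replicate 2 (-0.42), while Uhrf1 passed without day 7.5 replicate 1 (-1.55). Without that library Tet3 also passed from day 3.5 to day 7.5 (1.16). In WT from day 3.5 to day 5.5, Dnmt3b (-0.89) lost its call without day 3.5 replicate 2 (-0.89) or 3 (-0.79) or day 5.5 replicate 2 (-0.82) or 3 (-0.85). Between genotypes, none of the 9 differed on day 3.5 (3.38% of all genes; none of the 9 at an unadjusted p under 0.05 either), though Dnmt3a passed without Foxa2-/- replicate 1 (-0.54, adjusted p = 0.0124). On day 4.5 there were 2, of which Dnmt3l had entered the test through Foxa2-/- libraries alone, which leaves Dnmt3b (7.5% of all genes in either direction, 1.69% higher in Foxa2-/-), on day 5.5 there were 3 (14.3% and 4.53%), on day 6.5 there were 3 (24.9% and 13%) and on day 7.5 there were 4 (25.8% and 13.6%). All of these were higher in Foxa2-/- cells.

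Tdg, the fourth gene called on day 7.5, cannot be separated from its copies. It lies on chromosome 10 (82629828 to 82650799, plus strand). Gm5806, labelled a Tdg pseudogene in the annotation, matches it at 98.7% of 2968 bases, Gm9855 at 99.2% of 1194 bases and RP24-226I7.1 at 99.3% of 1193 bases. Tdg was at 26.7 and 20.0 FPKM in Foxa2-/- and 14.6, 14.4 and 14.7 FPKM in WT on day 7.5, a difference of 0.63 [0.22 to 1.05] (adjusted p = 0.0231). The call was lost without Foxa2-/- replicate 1 (0.43, adjusted p = 0.292), WT replicate 2 (0.63, adjusted p = 0.0535) or WT replicate 3 (0.64, adjusted p = 0.0517). The copies differed on that day by 0.41 (Gm9855, adjusted p = 0.0688), 0.44 (RP24-226I7.1, adjusted p = 0.061) and 0.33 (Gm5806, adjusted p = 0.118). In WT all 4 fell from day 3.5 to day 7.5, Tdg by 0.71 (adjusted p = 0.00245), Gm9855 by 0.61 (adjusted p = 0.00166), RP24-226I7.1 by 0.71 (adjusted p = 5.87e-04) and Gm5806 by 0.64 (adjusted p = 5.87e-04). Gm9855 was listed at 43.7 and 35.5 FPKM in Foxa2-/- and 29.8, 29.3 and 28.95 FPKM in WT on day 7.5, above Tdg itself.

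Each group of the Nkx2.2 arm was a lone library, so no test was made, and most of the 9 genes had close values and Tdg did not. A difference of at least 1 on the log2(FPKM + 1) scale was counted. On day 3.5 only Tdg passed it (4.63% of all genes did), at 26.5 FPKM in Nkx2.2-/- and 10.3 FPKM in WT, a difference of 1.28. On day 5.5 again only Tdg passed it (4.48% of all genes), at 26.2 FPKM in Nkx2.2-/- and 8.21 FPKM in WT, a difference of 1.56. Its copy Gm9855 ran the other way, at 38.4 FPKM in Nkx2.2-/- and 64.6 FPKM in WT on day 3.5 and at 40.8 FPKM in Nkx2.2-/- and 65.5 FPKM in WT on day 5.5. Gm5806 was close in both, at 7.103 FPKM in Nkx2.2-/- and 6.48 FPKM in WT on day 3.5. RP24-226I7.1 had no value in this arm, so the set of listed copies differs from that of the Foxa2 series. The division of reads between Tdg and Gm9855 was not tested.

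**Figure D5:**
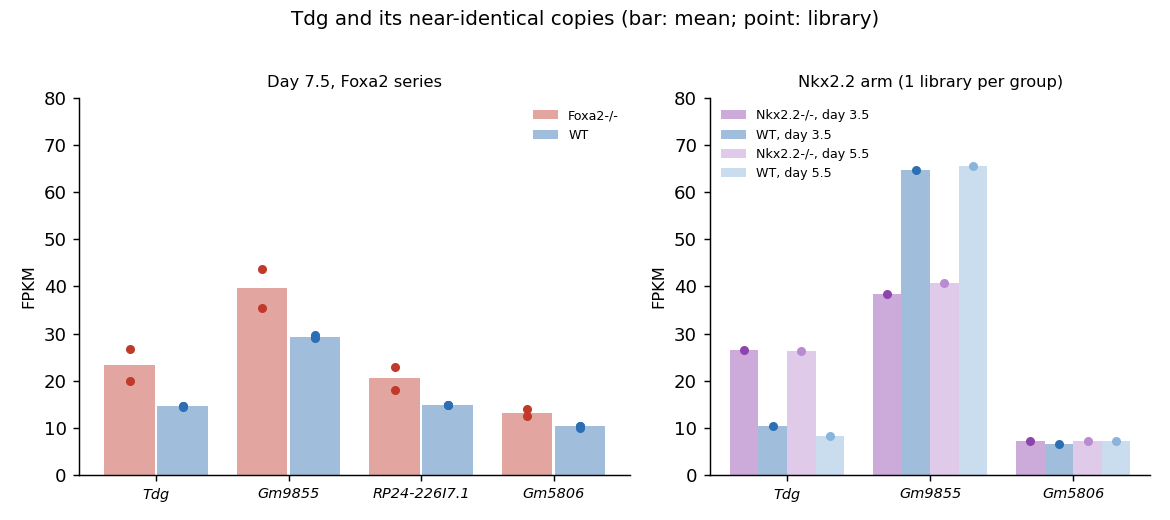
FPKM (vertical axes, linear from 0) of Tdg and its near-identical copies on day 7.5 of the Foxa2 series (left; Foxa2-/- in red, WT in blue) and in the Nkx2.2 arm (right; Nkx2.2-/- in purple, WT in blue, darker for day 3.5); bars are means and points libraries. In the Nkx2.2 arm Tdg is 26.5 and 26.2 FPKM in Nkx2.2-/- and 10.3 and 8.21 FPKM in WT, and Gm9855 goes the opposite way. RP24-226I7.1 has no value in that arm.

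Dnmt3b and Dnmt3l were lower in Nkx2.2-/- on both days without reaching that size. For Dnmt3l, which reached 1 FPKM in the WT library of day 3.5 alone, this scale understates the difference. Dnmt3b was at 7.16 FPKM in Nkx2.2-/- and 12.4 FPKM in WT on day 3.5, and at 4.58 FPKM in Nkx2.2-/- and 7.79 FPKM in WT on day 5.5. Dnmt3l was at 0.209 FPKM in Nkx2.2-/- and 1.16 FPKM in WT on day 3.5, and at 0.118 FPKM in Nkx2.2-/- and 0.590 FPKM in WT on day 5.5. Dnmt1 was at 80.6 FPKM in Nkx2.2-/- and 84.7 FPKM in WT on day 3.5, and at 66.7 FPKM in Nkx2.2-/- and 61.4 FPKM in WT on day 5.5. Uhrf1 was at 95.8 FPKM in Nkx2.2-/- and 96.1 FPKM in WT on day 3.5, and at 60.2 FPKM in Nkx2.2-/- and 60.7 FPKM in WT on day 5.5. Tet3 was again the highest TET gene, at 14.6 FPKM in Nkx2.2-/- and 16.7 FPKM in WT on day 3.5 and 16.1 FPKM in both on day 5.5.

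Partners of the 9 genes were counted from lists of the same pathways. Of 13 tested genes that target or regulate methylation, 8 fell and 2 rose by day 2 in Foxa2-/- (54.6% of all genes changed), and 5 fell and none rose in WT (33.9% of all genes). Dppa3, which shields methylation in the early embryo, fell by 3.27 in Foxa2-/- (adjusted p = 4.24e-08) and fell by 3.21 in WT (adjusted p = 5.65e-07). Zfp57, which keeps imprints methylated, fell by 2.14 in Foxa2-/- (adjusted p = 4.61e-07) and by 2.21 in WT (adjusted p = 3.76e-06). From day 3.5 to day 7.5, of 11 tested, 3 fell and 1 rose in Foxa2-/- (32.1% of all genes changed) and 8 fell in WT (46.8%). Hells, the remodeller that DNA methylation needs in closed chromatin, fell by 2.23 in Foxa2-/- (adjusted p = 0.00218) and fell by 3.19 in WT (adjusted p = 6.84e-06), and its partner Cdca7 fell by 2.07 in Foxa2-/- (adjusted p = 1.80e-04) and fell by 3.11 in WT (adjusted p = 1.40e-07). Between genotypes 3 of 11 were higher in Foxa2-/- on day 6.5 (Hells 1.92, Cdca7 1.55 and Trim28 0.63) and 2 on day 7.5 (Cdca7 1.61 and Setdb1 0.37), with none lower, when 13% and 13.6% of all genes were higher.

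Supply genes for S-adenosylmethionine and for TET cofactors included 14 tested, of which 5 fell and 2 rose in Foxa2-/- and 8 fell and 2 rose in WT between days 3.5 and 7.5, against 32.1% and 46.8% of all genes changed in the same comparisons. Ahcy, which clears the product that inhibits methyltransferases, fell by 1.58 in Foxa2-/- (adjusted p = 3.63e-05) and fell by 1.61 in WT (adjusted p = 2.19e-06), and Mtap, which salvages methionine, fell by 1.37 in Foxa2-/- (adjusted p = 9.41e-05) and fell by 2.12 in WT (adjusted p = 4.25e-08). On day 6.5, 6 were higher and 1 lower in Foxa2-/- (24.9% of all genes differed), and on day 7.5, 4 were higher and none lower (25.8%). By day 2 the counts were 5 higher and 4 lower in Foxa2-/- (54.6% of all genes) and 3 each way in WT (33.9%).

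Base excision repair and deamination genes, which act with Tdg, split in direction. Of 16 tested by day 2, 5 rose and 5 fell in Foxa2-/- (54.6% of all genes changed), and 2 rose and 5 fell in WT (33.9%), with the cytidine deaminase gene Apobec3 changing most. Apobec3 fell by 3.47 in Foxa2-/- (adjusted p = 8.24e-09) and fell by 2.77 in WT (adjusted p = 5.62e-07). Of 15 tested later, 5 were higher and 1 lower in Foxa2-/- on day 6.5 (24.9% of all genes differed), and 6 were higher and 1 lower on day 7.5 (25.8%). Ung, the uracil glycosylase, was higher by 1.65 on day 6.5 (adjusted p = 0.00174), and Gadd45b differed by -1.49 on day 7.5 (adjusted p = 1.37e-04). From day 3.5 to day 7.5, 3 rose and 3 fell in Foxa2-/- (32.1%) and 2 rose and 4 fell in WT (46.8%).

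Of 10 tested genes for proteins that read methylated DNA, 6 rose by day 2 in Foxa2-/- (median 0.46, against 0.14 over all genes, of which 54.6% changed) and 3 rose in WT (Mbd1, Mbd2 and Uhrf2; median 0.80, against 0.11, with 33.9% of all genes changed), and none fell. Mbd2, which binds methylated CG pairs as part of a deacetylase complex, was the only 1 of 11 that differed on days 6.5 (-1.02, adjusted p = 7.10e-04) and 7.5 (-0.94, adjusted p = 0.00127), with 26.6 FPKM in Foxa2-/- and 54.2 in WT on average on day 6.5. Germline genes known to be silenced by promoter methylation fell by day 2, 15 of 17 tested in Foxa2-/- (54.6% of all genes changed) and 12 of 17 in WT (33.9%). Sycp3, a protein of the meiotic chromosome axis, fell by 3.37 in Foxa2-/- (adjusted p = 4.59e-07) and by 3.36 in WT (adjusted p = 4.88e-06). In the later table Sycp3 reached 1 FPKM in Foxa2-/- libraries alone, so no test of it is given there; it was at 2.17 and 2.18 FPKM in Foxa2-/- and 0.290, 0.207 and 0.215 FPKM in WT on day 7.5. Brdt differed by -1.25 on day 6.5 (adjusted p = 2.81e-04). Apart from Sycp3 and Brdt, none of the 11 tested germline genes was called on days 6.5 and 7.5 (24.9% and 25.8% of all genes were). The summed FPKM of the germline list was 66.2 to 100 in Foxa2-/- and 23.2 to 47.8 in WT on day 6.5. On day 7.5 it was 79.3 to 92.4 in Foxa2-/- and 59.2 to 63.1 in WT. The ranges were also apart on day 4.5, higher in Foxa2-/-, and overlapped on days 3.5 and 5.5. Genes of the 2-cell-like state fell by day 2 for 6 of 8 in Foxa2-/- and 2 of 8 in WT, and none of them passed the filter in the later table.

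The genes most like each enzyme over the 15 early libraries, among all genes with a mean of at least 5 FPKM, give the company these transcripts kept. For Dnmt3a they were Etv5 (r = 0.987) and Sgk1 (r = 0.984), and for Dnmt3b, after Gm14490, the signal Nodal (r = 0.989). For Dnmt3l they were Upp1 (r = 0.976) and Pgm2 (r = 0.972). For Tet1 they were Rest (r = 0.984) and Nufip2 (r = 0.980), for Tet2 Jarid2 (r = 0.983) and Herc4 (r = 0.980), and for Tet3 Zfp516 (r = 0.991) and Smarcc2 (r = 0.987). Over the 28 later libraries the closest to Dnmt3b was Pprc1 (r = 0.922) and to Tdg its copy RP24-226I7.1 (r = 0.943), while for Dnmt3a (Yif1a, r = 0.787) and Tet1 (Slc35b4, r = 0.742) no gene came as close.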

How the data were processed

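RNA-seq of 47 mouse libraries was used as the FPKM values the authors deposited, in 3 tables. The submitters' processing notes name Cufflinks 2.1.1, HTSeq 0.6.1 and limma beside the aligner TopHat2 2.0.4, the base-call tools CASAVA and bcl2fastq 1.8.3, and GRCm38 (mm10), with no word on which step made the FPKM. The annotation and the use of strand in counting are not given in the sources used here. That bears on Dnmt3a, Dnmt3b, Dnmt3l, Tet2, Tet3 and Tdg, which overlap genes on the opposite strand. Of the columns, 3 that match no sample were not used.

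Columns were matched to samples by name, each table was tested on its own, and rows of a gene listed more than once were reduced to 1. Log2(FPKM + 1) of genes that reached 1 FPKM in at least 2 libraries was fitted with limma 3.58.1 (R 4.3.3), with a mean per group and an empirical Bayes trend, 22 comparisons in all, two-sided, with Benjamini-Hochberg adjustment over all genes, and the procedure was tested on simulated data. In the Nkx2.2 arm differences of at least 1 were counted without a test. The spacing of low values gave an estimate of depth; FPKM carries no count interval, so precision is given by the spread between libraries. Copies were sought with blastn 2.17.0 (at least 95% identity over at least 300 bases). Figures used matplotlib 3.10.9.

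Members and lists were chosen with earlier results of these data known, so no list is independent support. Beside the 9 genes and their copies, at most 3 called genes per direction, list and comparison are named, by largest change, and the 2 genes of highest correlation. Genes of S phase, naive and core pluripotency, neural progenitors, neurons, endoderm and mesoderm and the 2-cell-like state were counted as companions; Pou5f1, Lin28a, Nanog, Dppa5a, Prom1 and Sycp3 levels were picked after their values were seen. Alternatives were another pseudocount (0.1), no filter, median-of-ratios and quantile scaling, fits of only the groups compared, a replicate block, isolated zeros as missing, removal of the length trend and leaving out libraries.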

Additional observations from a re-analysis of the deposited data

Results flagged for a closer look

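Dnmt3b changed differently in the 2 genotypes between days 3.5 and 7.5, by a tested difference of 1.35 (limma adjusted p = 0.0388). The value was 0.70 without Foxa2-/- day 7.5 replicate 1, the library with 18.5 FPKM of Dnmt3b and 19.6 FPKM of Pou5f1.

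For Dnmt3a the difference between genotypes had opposite signs at different times, with every library of a genotype on its own side. Dnmt3a was higher in Foxa2-/- undifferentiated cells by 0.52 and lower by a difference of -0.46 on day 1, and neither passed the test (adjusted p = 0.317 and 0.159). Among sorted cells the Dnmt3a difference was -0.37 on day 4.5 and 0.33 on day 6.5. The difference between these times was not tested in either case.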

How the results depend on the processing

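The 6 calls of day 2 against undifferentiated cells were kept in all 15 alternatives in Foxa2-/- and all 12 in WT. Dnmt1, Dnmt3b and Uhrf1 on day 6.5 and Dnmt3b on day 7.5 were kept in all 13, and no called change reversed in sign. Scaling by median-of-ratios or quantiles moved the median over all genes most from undifferentiated cells to day 1 in Foxa2-/-, where it was 0.265 as deposited and 0.015 with median-of-ratios. Fitting only the groups compared left 1 of the 9 genes between genotypes on day 1, 0 on day 2, 1 on days 4.5, 5.5 and 7.5, 0 from undifferentiated cells to day 1 in WT, and in Foxa2-/- 1 from day 3.5 to 5.5, 0 from day 5.5 to 7.5, 2 from day 3.5 to 7.5 and 0 in the test of differing late change. Between genotypes on day 1, treating isolated zeros as missing, removing the length trend or median-of-ratios scaling gave 1 and quantile normalization 2. On day 2 isolated zeros as missing or median-of-ratios gave 2, and leaving out Foxa2-/- replicates 1 and 3 gave 0. On day 4.5 no filter gave 0 and quantile normalization 1, and on day 5.5 removing the length trend gave 5. Quantile normalization left 0 from day 3.5 to 5.5 in Foxa2-/-. The early test of differing change gave 1 with isolated zeros as missing, median-of-ratios or quantile normalization, and the late test 0 with no filter. A pseudocount of 0.1 gave 2 genes past 2-fold on each day of the Nkx2.2 arm, Tdg and Dnmt3l. The cause was not tested in any of these. The share of all genes called under each of these settings, and under the leave-outs that follow, is not given here. A change in these counts therefore cannot be read as particular to the 9 genes.

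Leaving out 1 library at a time gave 0 to 6 genes between genotypes on day 2, 0 to 1 on day 3.5, 0 to 1 on day 4.5, 0 to 3 on day 5.5 and 1 to 4 on day 7.5. It gave 2 to 3 for WT from undifferentiated cells to day 1 and 3 to 5 from day 1 to day 2. In Foxa2-/- it gave 1 to 4 from day 3.5 to 5.5 and 0 to 2 from day 5.5 to 7.5. The early test of differing change gave 0 to 4 and the late test 0 to 2.

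No label says that replicate numbers pair the samples, and in no comparison of 3 pairs did every pair deviate together by r over 0.1. In 2 of these 10 comparisons every library correlated best with its own number, and where only 2 pairs exist r was 0.32 and 0.36 between genotypes in undifferentiated cells and 0.17 and 0.18 on day 7.5, a hint from the data only. With a replicate block, 0 of the 9 genes differed between genotypes on day 2 and 2 changed from day 5.5 to 7.5 in Foxa2-/-. In WT, ES and day 1 libraries of the same number deviated oppositely (r = -0.36), and a block with the day 1 numbers crossed, added after seeing the data, gave 4 called genes. Depth limits Dnmt3l most, at or near 0 in the later WT libraries.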

Other observations

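The lone libraries of the Nkx2.2 arm, which allow no test, also differed in germline genes that are known to be silenced by promoter methylation. The genes named here were picked after their values were seen. Some, such as Dazl, reached 1 FPKM in WT alone, so no count of genes past a fold is given. On day 3.5 this also held for Mael, Slc25a31 and Taf7l, named below. The summed FPKM of the list was 5.34 in Nkx2.2-/- and 35.4 in WT on day 3.5, and 4.99 in Nkx2.2-/- and 22.6 in WT on day 5.5. Mael, a piRNA pathway gene, was at 0.396 FPKM in Nkx2.2-/- and 5.06 FPKM in WT on day 3.5. Slc25a31, a germline ADP/ATP carrier, was at 0.107 FPKM in Nkx2.2-/- and 7.85 FPKM in WT, and Taf7l, a germline transcription factor subunit, at 0.290 FPKM in Nkx2.2-/- and 4.69 FPKM in WT on that day. Dnmt3b and Dnmt3l were lower in the same Nkx2.2-/- libraries, and the lines differ in their label. Any tie between these enzyme genes and the germline genes was not tested.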
